A study of Mus musculus with 8 samples.

Results

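The effect of deleting the acetyltransferase MOF in embryonic skin epithelium was set, gene by gene, against the effect of deleting its partner subunit Kansl1 in newborn epidermis. All 8 of the 8 RNA-seq libraries of the series entered, 2 in each of 4 groups. MOF was tested at the embryonic stage E16.5, with control and MOFfl/fl/K14Cre animals (MOF cKO), and Kansl1 in newborns at P0.5, with control and Kansl1fl/fl/K14Cre animals (Kansl1 cKO). In both lines the Cre recombinase was driven by the Krt14 promoter, so deletion began in the basal epithelium and dermal, immune and neural crest cells kept the gene. The control animals were littermates without the homozygous deletion, on a mixed C57Bl/6J and CD-1 background, and whether a library came from 1 animal or a pool was not given in the sources used here. At E16.5 the back skin was dissociated and cells carrying the Krt14-H2BGFP reporter were sorted by FACS, whereas at P0.5 the whole epidermal sheet was lysed after Dispase, with any other cell it held. Per the study's reporting summary, the MOF libraries were sequenced on a HiSeq and the Kansl1 libraries on a NovaSeq instrument. Stage, isolation, sequencer and deleted gene therefore changed together between the experiments, and their parts in a difference between the effects cannot be told apart. The question was which genes moved alike after both deletions, which moved in opposite ways, and which moved in one deletion only.

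MOF, encoded by Kat8, is the catalytic subunit that acetylates lysine 16 of histone H4. It works in either of a pair of complexes. In the MSL complex it is held by MSL1 with MSL2 and MSL3. In the NSL complex it is held by the scaffold KANSL1 with KANSL2, KANSL3, PHF20, MCRS1, WDR5, HCFC1 and OGT, and this complex binds promoters of widely expressed genes. Loss of MOF removes the enzyme from both, and loss of KANSL1 takes away the scaffold of the NSL complex only. In developing skin the primary cilium, an antenna built by intraflagellar transport, passes Hedgehog signals on to the cell, and Sonic hedgehog from the hair placode drives the hair germ downward.

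The libraries held between 9108709 and 27561688 reads on genes, and 1 count stood for 0.03 to 0.122 CPM (read counts on the scale of a common library size, with edgeR's TMM factors). The 2 libraries of a group differed by a median absolute log2 difference of 0.17 in E16.5 control, 0.217 in MOF cKO, 0.269 in P0.5 control and 0.215 in Kansl1 cKO. Nothing states which libraries came from separate litters, so p-values measure the spread between these libraries. E16.5 control replicate 1 and P0.5 control replicate 2 differed from the other library of their group in sex-linked genes. Xist was at 1390 CPM in the former against 9.45 CPM in the other E16.5 control, and at 1.32 CPM in the latter against 456 CPM in the other P0.5 control. Both MOF cKO libraries had low Xist (11.1 and 9.21 CPM) and the Y-linked Ddx3y at 88.1 and 87.8 CPM. Both Kansl1 cKO libraries had Xist at 408 and 462 CPM and Ddx3y at 0 CPM. Sex-linked levels thus changed in part with genotype, in opposite ways in the 2 experiments, and their part in the differences was not tested. The 9 sex-linked genes tested gave 0 calls in any comparison, while the unlike controls widened their spread. Of these 9, 4 were lower and 2 higher in Kansl1 cKO at an unadjusted p under 0.05. P0.5 control replicate 1 stood apart in muscle RNA: 6 skeletal muscle markers summed to 318 CPM there and to between 5.35 and 8.69 CPM in the other P0.5 libraries. Epidermis markers dominated in all 8 libraries, with summed levels of 30380 to 40250 CPM at E16.5 and 57670 to 89380 CPM at P0.5.

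Neither deleted gene could be checked closely, since counts cover the whole gene, undeleted exons included. Kat8 was at 13.3 and 13.6 CPM in E16.5 control, 11.5 and 12.8 CPM in MOF cKO, 16.3 and 21.1 CPM in P0.5 control and 16.6 and 14.5 CPM in Kansl1 cKO. The MOF cKO libraries lay below both controls by less than the spread allows to call, with a log2 fold change of -0.14 (SE 0.20, adjusted p = 0.606). Kansl1 was at 118 and 119.7 CPM in E16.5 control, 140.2 and 121 CPM in MOF cKO, 43.4 and 51.8 CPM in P0.5 control and 34.6 and 33.4 CPM in Kansl1 cKO. Both Kansl1 cKO libraries lay below both controls, and the log2 fold change was -0.49 (SE 0.14, unadjusted p = 0.00713). In the fit, the adjusted p of that value was 0.146. Kat8 lies at chr7:127912517-127925838 and Kansl1 at chr11:104333501-104469508 of GRCm38.p6. Of the 9 NSL subunits 0 were called in either deletion, and of the 3 MSL subunits 0 were called. At an unadjusted p under 0.05, 1 NSL subunit was lower and 3 were higher in Kansl1 cKO, beside 7.56% and 9.51% of all tested genes. Ogt, which adds N-acetylglucosamine to proteins, had a Kansl1 log2 fold change of 0.57 (SE 0.18, unadjusted p = 0.00959), and Phf20, which reads methyl marks, of 0.52 (SE 0.16, unadjusted p = 0.0106).

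For each gene the log2 fold change of MOF cKO over E16.5 control and that of Kansl1 cKO over P0.5 control were taken from 1 fit, and the second was subtracted from the first. Genes counted as called had a Benjamini-Hochberg adjusted p of at most 0.01 from edgeR's quasi-likelihood test and a change over 1.5-fold. Of 14565 genes tested, 1321 (9.07%) fell and 1337 (9.18%) rose in MOF cKO. In Kansl1 cKO 0 fell and 0 rose, where the smallest adjusted p was 0.0194 and 8 genes had an adjusted p of 0.05 or lower. At an unadjusted p under 0.05, 1101 genes (7.56%) were lower and 1385 (9.51%) higher in Kansl1 cKO, and DESeq2 called 96 lower and 95 higher. Counts in the gene lists below are to be read beside these shares of all tested genes, and some lie near them. With scaling by library size alone the unadjusted split turned to 1325 lower and 672 higher, and with upper-quartile factors to 1474 and 894.

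The difference of the effects was called below 0 for 170 genes (1.17%) and above 0 for 256 (1.76%). A value below 0 says that the gene was lowered more, or raised less, after MOF loss than after Kansl1 loss. Of these 426 genes, 408 were called in MOF cKO by themselves, 158 of them lower and 250 higher, and 18 were not. The Kansl1 effect was the larger of the pair in 22. In 269 of the 426 the effects had opposite signs, and in 91 of those genes both had an unadjusted p under 0.05. The 2 libraries of each deletion lay on opposite sides of their controls in the 2 experiments for 159 of the 426 genes, on the same side in both for 85, and apart in the MOF experiment only for 181. Over all tested genes those sides were opposite for 1658 and the same for 3366. Selection for a large difference of the same 2 effects favours opposite signs and opposite sides. The counts for the 426 genes therefore describe them and test nothing. Scaling by library size alone moved the median difference of all genes from -0.0654 to -0.286 and the share of called differences below 0 from 39.9% to 52.8%. The share of MOF calls that were lower moved with it, from 49.7% to 74.1%, beside a median MOF effect of -0.306.

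The number of called differences rested on single libraries. Of the 426 genes, 79 were still called without P0.5 control replicate 1, 86 and 96 without E16.5 control replicates 1 and 2, and 91 and 149 without MOF cKO replicates 1 and 2. Without P0.5 control replicate 2 and without Kansl1 cKO replicates 1 and 2, 267, 124 and 256 were still called. Without both controls that stand apart in sex-linked genes 79 were. DESeq2 called all 426 again among 1496. With the replicate number added as a block within each experiment, 1 of the 426 was still called, and although the study worked with pairs of samples and littermate controls, no source used here ties equal numbers to a pair. Of the 45 genes named here that have a called difference and a fit for each library left out, 7 were called in each of the 8 fits: the cilium genes Ttc26, Ift57 and Bbs1, the macrophage genes Lyz2, C1qa and Tyrobp, and Slfn2.

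**Figure D1:**
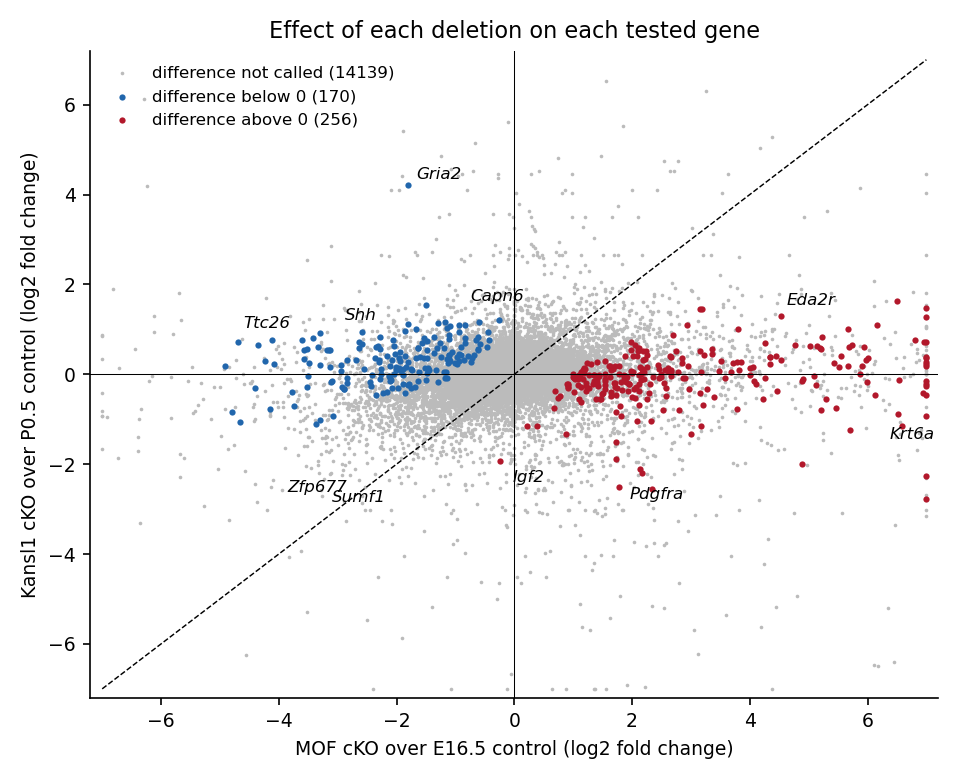
Log2 fold change in Kansl1 cKO (vertical axis) against that in MOF cKO (horizontal axis) for the 14565 tested genes, with values beyond 7 drawn at the edge and a dashed line where both effects are equal. The 170 genes with a called difference below 0 (blue) lie to the left of the line and the 256 above 0 (red) to its right, and most of both sit along the horizontal axis.

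Genes that fell after MOF loss tended to be lower after Kansl1 loss as well. Of the 1321 genes called lower in MOF cKO, 365 (27.6%) were lower in Kansl1 cKO at an unadjusted p under 0.05, against 7.56% of all tested genes, and 52 (3.94%) were higher, against 9.51%. Of the 1337 genes called higher in MOF cKO, 221 were higher in Kansl1 cKO and 44 (3.29%) lower. Turned around, the 365 genes were 33.2% of those lower in Kansl1 cKO, and the 221 were 16% of those higher. The median Kansl1 log2 fold change was -0.26 over the genes that fell in MOF cKO and 0.15 over those that rose, against 0.04 over all tested genes. The same genes had a median MOF effect of -1.44 and 1.29, but they were selected by that effect, so these medians cannot compare the sizes. Over all tested genes the median absolute log2 fold change was 0.524 in MOF cKO and 0.284 in Kansl1 cKO. Of the genes that fell in MOF cKO, 98% reached 1 CPM in P0.5 control, so low expression there leaves out few of them.

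**Figure D2:**
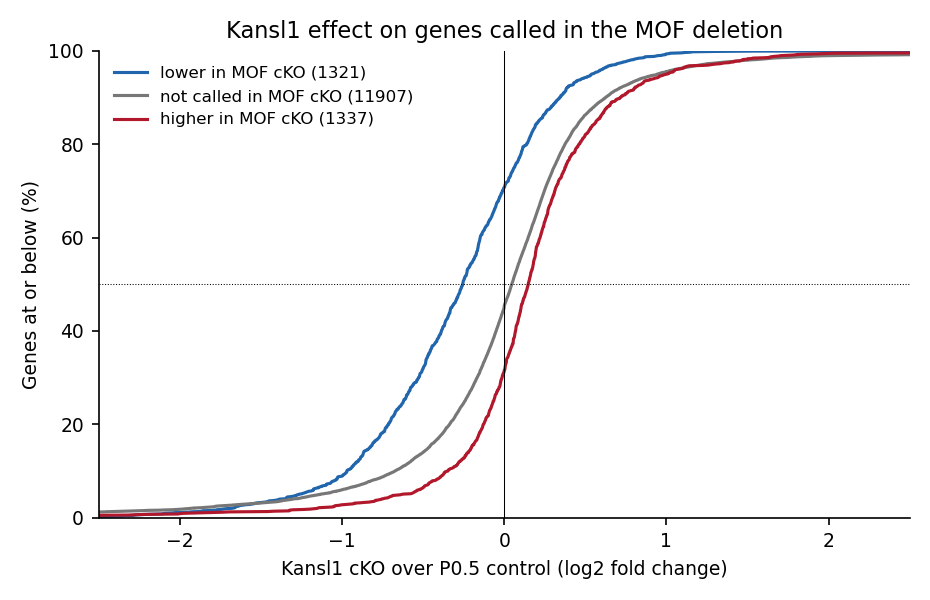
Cumulative share of genes (vertical axis) by log2 fold change in Kansl1 cKO (horizontal axis), for the 1321 genes lower in MOF cKO, the 1337 higher and the 11907 not called. The curve of the lower genes lies to the left of the others, with 70.7% of its genes below 0, and that of the higher genes lies to the right, with 31.3% below 0.

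A called difference was found for 158 (12%) of the genes that fell and 250 (18.7%) of those that rose in MOF cKO, against 2.92% of all tested genes. The MOF effect is part of the difference, so a higher share follows from the selection. Genes without a called difference are not thereby shown to move alike. For 217 (16.4%) of the genes that fell and 469 (35.1%) of those that rose, the 95% interval of the Kansl1 effect lay wholly within 1.5-fold of no change. The share over all tested genes was 25.4%. By edgeR 0 genes were called in both deletions, in the same or in opposite directions, while DESeq2 called 76 in the same direction and 13 in opposite ones. Across all 14565 genes Pearson's r between the effects was 0.10 and Spearman's rho 0.19. Across the 2658 genes called in MOF cKO r was 0.33 and rho 0.41, and across the 11515 genes with at least 1 CPM in both controls r was 0.24 and rho 0.26. Genes are not independent replicates, and the points share library depth and the scaling of the same 8 libraries, so no p is given.

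The share that moved alike depended on the P0.5 controls. Without P0.5 control replicate 2, 14.5% of the genes lower in MOF cKO were lower in Kansl1 cKO and 7.13% higher, and their median Kansl1 effect was -0.09. Without P0.5 control replicate 1 the shares were 30.5% and 2.37%, and the median was -0.36. Without both controls that stand apart in sex-linked genes, 71 of 470 genes (15.1%) were lower in both and 29 (6.17%) went the other way. Compared by pairs of libraries, the median for the genes lower in MOF cKO was -0.14 and -0.11 against P0.5 control replicate 1 and -0.35 against control replicate 2 with either Kansl1 cKO library. The like direction held the larger share in each of these settings and in the others run.

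**Figure D3:**
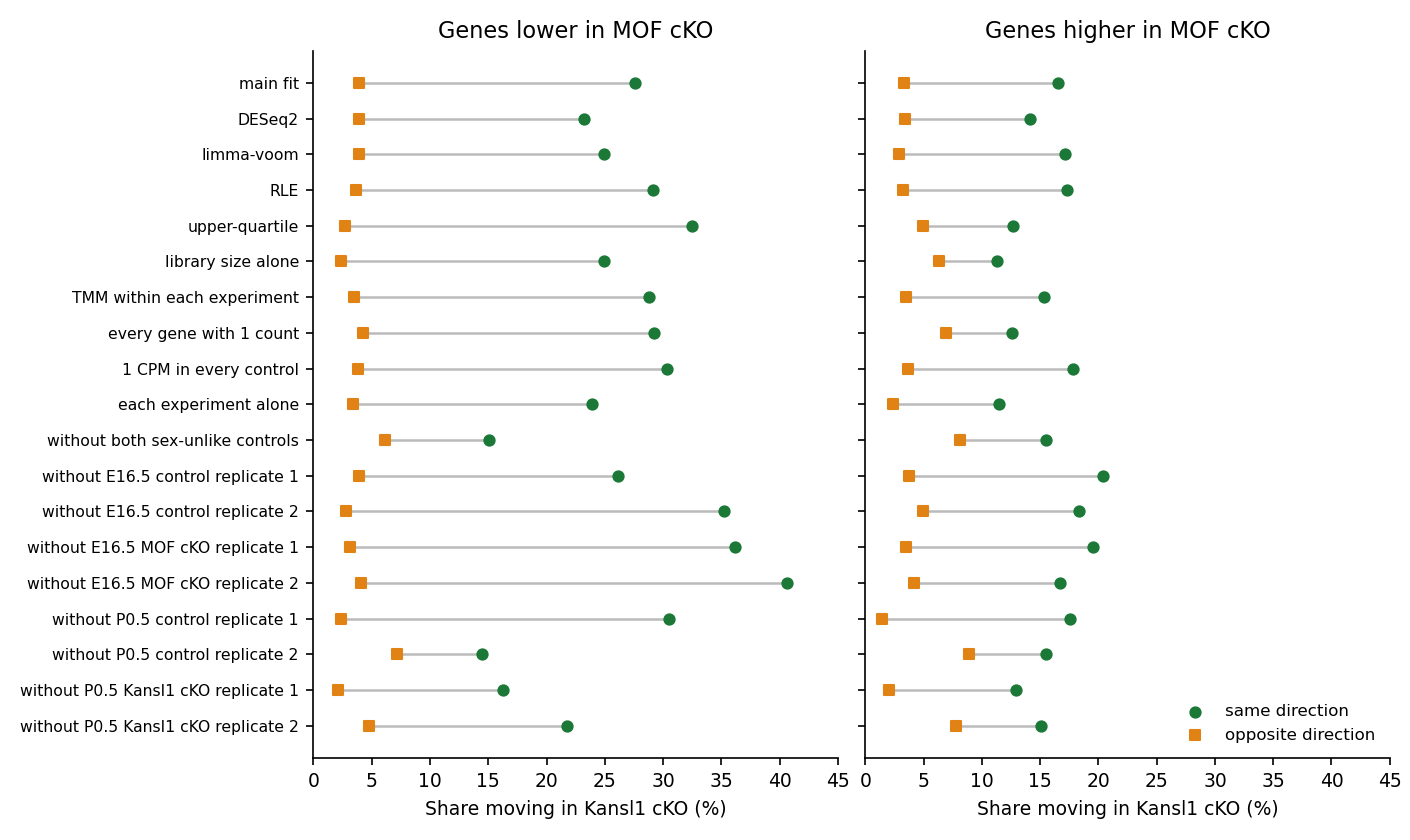
Percent of the genes called lower or higher in MOF cKO (horizontal axis) that moved in Kansl1 cKO at an unadjusted p under 0.05 in the same or in the opposite direction, for each way of processing or left-out library (vertical axis). In all settings drawn the same direction has the larger share, and the gap is narrowest without P0.5 control replicate 2 for the lower genes, at 14.5% against 7.13%, and with scaling by library size alone for the higher genes, at 11.3% against 6.28%.

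Since 0 genes were called in both deletions, the genes given for a like response were called in MOF cKO and had an unadjusted p under 0.05 in Kansl1 cKO. By the size of the smaller effect these were Nrn1, Zc4h2, Oas1c, H2-T10, Syt3, Zfp108 and Zfp677, all lower, and Stra6, higher. Zfp677 was at 4.22 and 5.21 CPM in E16.5 control, 0.602 and 0.742 CPM in MOF cKO, 6.97 and 11.1 CPM in P0.5 control and 1.704 and 2.16 CPM in Kansl1 cKO. All 4 deletion libraries of this zinc finger gene lay below both of their controls. Its log2 fold change was -2.79 (SE 0.39, adjusted p = 0.00108) in MOF cKO and -2.25 (SE 0.37, unadjusted p = 0.000201) in Kansl1 cKO, and the difference was -0.55 with a 95% interval of -1.77 to 0.67. Zc4h2 was at 5.06 and 6.08 CPM in E16.5 control, 0.185 and 0.429 CPM in MOF cKO, 1.71 and 3.199 CPM in P0.5 control and 0.373 and 0.518 CPM in Kansl1 cKO. The deletion libraries of Zc4h2, which encodes a zinc finger protein of neural development, were the lowest again. Its difference of -1.62 had an interval of -3.46 to 0.21, which holds 0.

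Nrn1 was at 2.28 and 3.87 CPM in E16.5 control, 0.278 and 0.547 CPM in MOF cKO, 2.45 and 3.06 CPM in P0.5 control and 0.426 and 0.0863 CPM in Kansl1 cKO. This gene, for the membrane protein neuritin, had about the same log2 fold change in both deletions, -2.86 and -3.27, with a difference of 0.41 (interval -1.82 to 2.64). Oas1c was at 1.65 and 1.44 CPM in E16.5 control, 0.185 and 0.117 CPM in MOF cKO, 3.06 and 3.41 CPM in P0.5 control and 0.639 and 0.777 CPM in Kansl1 cKO. Oas1c, of the oligoadenylate synthetase family, was lower in every deletion library than in its controls, with a difference of -1.12 (interval -2.97 to 0.73). H2-T10, Syt3 and Zfp108 were all under 5 CPM, and Zfp108 held 1 count over both MOF cKO libraries and 88 over their controls, a ratio of 65.7 with a counting interval of 11.5 to 2620. Stra6, the receptor for retinol binding protein, had 52 counts in MOF cKO and 3 in control, a ratio of 23.2 (counting interval 7.52 to 116). It had 0 counts in P0.5 control, against which Kansl1 cKO was at least 1.77-fold higher. Symbols beginning with Zfp, a set chosen after its values were seen, held 334 tested genes. Of these 61 (18.3%) fell and 5 rose in MOF cKO, against 9.07% and 9.18% of all tested genes. Of the 334, 26 (7.78%) were lower and 25 (7.49%) higher in Kansl1 cKO at an unadjusted p under 0.05, near the 7.56% and 9.51% of all tested genes. Lower in both were 17 of the 334, beside 365 of all 14565 tested genes, and 2 (0.599%) had a called difference below 0, under the 1.17% of all.

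Raising the limit on the adjusted p to 0.05 gave 5 genes called in both deletions, chosen here after their values were seen. Sumf1 was at 16.1 and 14.8 CPM in E16.5 control, 3.66 and 4.25 CPM in MOF cKO, 20.1 and 21 CPM in P0.5 control and 4.26 and 4.14 CPM in Kansl1 cKO. All 4 deletion libraries of Sumf1, which encodes the enzyme that activates sulfatases, lay far below their controls. The log2 fold changes were -1.97 (SE 0.20, adjusted p = 0.00032) in MOF cKO and -2.29 (SE 0.21, adjusted p = 0.0194) in Kansl1 cKO. Yipf1 was at 21.5 and 21.6 CPM in E16.5 control, 5.09 and 3.94 CPM in MOF cKO, 46.9 and 48.1 CPM in P0.5 control and 14.9 and 16.6 CPM in Kansl1 cKO. Yipf1, a membrane protein of the Golgi, was lower in both deletions, with effects of -2.26 and -1.60 on the log2 scale. Commd4 was at 22.6 and 22.9 CPM in E16.5 control, 6.3 and 5.78 CPM in MOF cKO, 35.1 and 42.1 CPM in P0.5 control and 12.1 and 14.6 CPM in Kansl1 cKO. Commd4, of the COMMD family that regulates endosomal sorting, had values of -1.91 and -1.54. None of these 3 genes had a called difference.

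The other 2 of the 5 were higher. Bex1 was at 20.2 and 17.4 CPM in E16.5 control, 164 and 172 CPM in MOF cKO, 12.2 and 15.2 CPM in P0.5 control and 35.4 and 40.8 CPM in Kansl1 cKO. All deletion libraries of Bex1, an adaptor protein gene on the X chromosome, lay above their controls, by 3.16 and 1.46 on the log2 scale, and the difference of 1.70 (SE 0.22, adjusted p = 0.00384) was itself called. Serpine2 was at 24.9 and 25.3 CPM in E16.5 control, 209.5 and 246 CPM in MOF cKO, 9.54 and 8.35 CPM in P0.5 control and 26.7 and 21.8 CPM in Kansl1 cKO. The same order was seen for Serpine2, a secreted inhibitor of serine proteases. Its effects were 3.18 and 1.45 and its difference 1.73 (SE 0.22, adjusted p = 0.00379), so both genes moved the same way with unequal size.

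Among the gene lists, 2 of 30 intraflagellar transport genes were lower in both deletions, Kifap3 and Ttc30b, beside 365 of all 14565 tested genes. Of 35 genes of the BBSome and transition zone 6 were, Bbs5, Bbs9, Mks1, Tctn2, Tctn3 and Ttc8. Also lower in both were Rfc1 of DNA replication, Fancg and Xrcc2 of DNA repair and Tomm40l of mitochondrial import. The tRNA synthetase genes Sars2, Tars2 and Wars were too. Of 30 aldo-keto reductase and glutathione transferase genes 4 were lower in both, Gstk1, Gstm1, Gstm4 and Gstm5. The cytosolic and mitochondrial ribosomal protein lists were not sorted in this way. Those higher in both were led by p53 targets, 9 of 33, beside 221 of all 14565 tested genes, and are described with that list. A like direction was also found for Serpinb3a, Stfa1, Stfa2, Cd151, Cyc1, Timm8b, Ifi202b and Mgst1. Ifi202b was at 18.3 and 24.3 CPM in E16.5 control, 174 and 150.5 CPM in MOF cKO, 43.4 and 40.3 CPM in P0.5 control and 86.5 and 92.9 CPM in Kansl1 cKO. All deletion libraries of this interferon-inducible gene were above their controls, and its difference of 1.83 (SE 0.23, adjusted p = 0.00353) was called.

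Many cilium genes fell in MOF cKO, with smaller effects in Kansl1 cKO whose direction rested on which P0.5 control was kept. Of 30 tested genes of intraflagellar transport and its dynein-2 motor, 20 fell and 0 rose in MOF cKO, while 5 were lower and 2 higher in Kansl1 cKO at an unadjusted p under 0.05. The difference was called below 0 for 12 of them, and the list medians were -1.29 for the MOF effect, -0.13 for the Kansl1 effect and -1.24 for the difference, against -0.0654 over all genes. The other list held 35 genes of the BBSome, which loads membrane cargo, and of the transition zone, the gate at the cilium's base. Of these 19 fell and 5 had a called difference, with medians of -1.52, -0.0945 and -1.05. In Kansl1 cKO 6 of the 35 were lower and 2 higher at an unadjusted p under 0.05. Without P0.5 control replicate 1 the median Kansl1 effects of the lists were -0.243 and -0.236. Without control replicate 2 they were 0.0363 and 0.0181. The called differences without P0.5 control replicate 1 were 3 and 1, without E16.5 control replicate 1 they were 3 and 5, and without P0.5 control replicate 2 they were 9 and 7.

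Promoters of 3 cilium genes and of 2 other genes, chosen after their values were seen, are shown as examples from both classes. The classes are a fall with a called difference and a like response. Only promoters with a match to the marked motif were kept, so they do not show how common a match is in either class. The sequences are RefSeq's on GRCm38.p6, on the strand of the gene, in windows of 300 bases that lie mostly upstream of a reference point. That point can differ from the annotated gene start. The annotated start is chr6:38381464 for Ttc26 and chr4:107314223 for Yipf1, in both upstream of the reference point. Ttc26 (a plus-strand gene, chr6:38381274-38381573) and Cep19 (plus, chr16:32099539-32099838) fell in MOF cKO with a called difference (-1.90 for Cep19, a centrosome gene), and Mks1 (plus, chr11:87852965-87853264) was lower in both. Yipf1 (plus, chr4:107314113-107314412) and Commd4 (minus, chr9:57158250-57158549) were lower in both. Capitals mark a match to the X-box letters read by RFX factors, GTTNCC and GGNAAC parted by any 2 bases, in the first 3, and to CCGGAAG or its reverse complement, the ETS letters, in the last 2.
Ttc26: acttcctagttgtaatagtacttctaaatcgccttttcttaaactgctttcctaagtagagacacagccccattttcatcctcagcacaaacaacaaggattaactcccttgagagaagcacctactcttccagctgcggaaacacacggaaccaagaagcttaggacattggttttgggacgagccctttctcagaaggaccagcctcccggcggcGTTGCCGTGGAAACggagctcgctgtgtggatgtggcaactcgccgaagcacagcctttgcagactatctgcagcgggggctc
Cep19: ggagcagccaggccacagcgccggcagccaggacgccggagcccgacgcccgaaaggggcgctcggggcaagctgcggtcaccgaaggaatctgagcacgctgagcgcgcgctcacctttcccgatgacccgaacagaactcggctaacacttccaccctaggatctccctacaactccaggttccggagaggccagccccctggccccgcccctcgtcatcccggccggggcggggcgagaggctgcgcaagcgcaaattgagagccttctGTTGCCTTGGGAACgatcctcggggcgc
Mks1: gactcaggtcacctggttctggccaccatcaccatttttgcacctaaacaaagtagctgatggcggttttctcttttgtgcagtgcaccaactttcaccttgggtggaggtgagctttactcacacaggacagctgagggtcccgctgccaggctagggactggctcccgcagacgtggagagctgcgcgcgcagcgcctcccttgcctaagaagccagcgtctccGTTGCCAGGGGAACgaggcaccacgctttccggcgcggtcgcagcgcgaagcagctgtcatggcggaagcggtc
Yipf1: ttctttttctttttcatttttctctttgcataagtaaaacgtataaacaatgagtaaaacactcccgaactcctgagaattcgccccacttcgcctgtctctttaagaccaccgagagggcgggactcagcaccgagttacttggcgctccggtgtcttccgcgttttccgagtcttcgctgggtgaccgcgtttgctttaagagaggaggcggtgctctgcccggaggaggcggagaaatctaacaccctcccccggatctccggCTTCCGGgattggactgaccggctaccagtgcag
Commd4: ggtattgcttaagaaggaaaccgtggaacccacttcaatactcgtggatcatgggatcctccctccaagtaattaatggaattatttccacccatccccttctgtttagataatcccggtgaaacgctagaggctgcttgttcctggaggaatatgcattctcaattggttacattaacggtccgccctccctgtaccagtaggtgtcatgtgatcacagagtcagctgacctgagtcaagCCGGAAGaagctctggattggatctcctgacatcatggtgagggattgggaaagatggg

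Counted from the reference point of each window, the X-box match stands at -33 to -20 in Ttc26, at 22 to 35 in Cep19 and at -24 to -11 in Mks1. The ETS match stands at 16 to 22 in Yipf1 and at -9 to -3 in Commd4. Both strands were searched, and neither motif overlaps the other in letters. The X-box letters were in 143 of 27025 promoters of the table (0.529%), in 18 of the 1064 matched genes that fell in MOF cKO (1.69%) and in 3 of the 306 lower in both (0.98%). The ETS letters were in 9.93%, 22.3% and 26.8% of the same sets, and in 10 of the 36 matched genes (27.8%) that were higher in MOF cKO and lower in Kansl1 cKO. For the genes with a called difference under 80% had a promoter in the table (74.7% below 0 and 76.2% above 0), so their share is void. The same holds for all tested genes (78.3%), so no share over them can be set beside the classes. The 0.529% and 9.93% cover all genes of the table, tested here or not. A higher share in a class is therefore not shown to be an enrichment. A match describes letters and was not tested as a binding site.

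Ttc26 was at 7.85 and 7.68 CPM in E16.5 control, 0.371 and 0.507 CPM in MOF cKO, 4.89 and 4.73 CPM in P0.5 control and 9.16 and 7.08 CPM in Kansl1 cKO. Both MOF cKO libraries of Ttc26, the intraflagellar transport subunit IFT56, lay far below their controls, and both Kansl1 cKO libraries lay above theirs. The log2 fold change was -4.11 (SE 0.35, adjusted p = 0.000129) in MOF cKO and 0.76 (SE 0.29, unadjusted p = 0.0271) in Kansl1 cKO, and the difference of -4.88 (SE 0.45, adjusted p = 0.00092) had an interval of -5.89 to -3.86. Ift80 was at 25.5 and 24.7 CPM in E16.5 control, 4.21 and 3.87 CPM in MOF cKO, 6.49 and 8.21 CPM in P0.5 control and 11.5 and 10.6 CPM in Kansl1 cKO. Ift80, a core subunit of the B complex, moved in the same 2 directions, with -2.64, 0.58 and a difference of -3.22 (SE 0.29, adjusted p = 0.00092). Ift57 was at 10.6 and 9.98 CPM in E16.5 control, 1.06 and 0.664 CPM in MOF cKO, 6.24 and 5.49 CPM in P0.5 control and 8.95 and 8.11 CPM in Kansl1 cKO. Ift57, another B subunit, fell by 3.58 on the log2 scale, and its Kansl1 libraries lay above their controls by a margin that did not pass (unadjusted p = 0.0815).

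Dync2li1 was at 11.6 and 13.7 CPM in E16.5 control, 0.278 and 1.01 CPM in MOF cKO, 6.24 and 8.48 CPM in P0.5 control and 8.84 and 9.49 CPM in Kansl1 cKO. This light intermediate chain of dynein-2, the motor that brings material back from the tip, fell to far below control in MOF cKO and had near values at P0.5. Its difference was -4.54 (SE 0.59, adjusted p = 0.00379). Ift74 was at 25.8 and 24.04 CPM in E16.5 control, 5.33 and 6.33 CPM in MOF cKO, 16.6 and 20.1 CPM in P0.5 control and 19.1 and 14.3 CPM in Kansl1 cKO. The P0.5 libraries of Ift74 overlapped between genotypes, and its difference was -1.96 (SE 0.30, adjusted p = 0.00621), with a Kansl1 effect of -0.14 (SE 0.21, unadjusted p = 0.533). Dnalc1 was at 11.4 and 13.3 CPM in E16.5 control, 1.16 and 1.33 CPM in MOF cKO, 1.71 and 4.94 CPM in P0.5 control and 6.76 and 6.39 CPM in Kansl1 cKO. Dnalc1, a light chain of axonemal dynein and not of the list, was low in 1 P0.5 control and higher in both Kansl1 cKO libraries, and its difference was -4.23 (SE 0.58, adjusted p = 0.00465). Ift122, Ift81, Kif3a, Kif3b, Kifap3, Ttc30b and Wdr19 were the other called members of the list, and leaving out Ttc30b, which had few counts in MOF cKO, their differences ran from -3.38 for Wdr19 to -1.41 for Kif3a. Kifap3 and Ttc30b were lower in both deletions and still differed in size.

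B9d1 was at 10.7 and 11.96 CPM in E16.5 control, 0.741 and 0.586 CPM in MOF cKO, 4.28 and 6.61 CPM in P0.5 control and 8.31 and 4.58 CPM in Kansl1 cKO. B9d1, a transition zone protein, was low only in the MOF cKO libraries, and the P0.5 groups overlapped. Its difference was -4.32 (SE 0.54, adjusted p = 0.00353). Bbs1 was at 12.8 and 14.2 CPM in E16.5 control, 1.204 and 1.52 CPM in MOF cKO, 8.32 and 6.12 CPM in P0.5 control and 7.24 and 9.32 CPM in Kansl1 cKO. Bbs1, a BBSome subunit, overlapped at P0.5 and had a difference of -3.50 (SE 0.39, adjusted p = 0.00222). Arl6, the small GTPase that recruits the BBSome, and Tmem231 of the transition zone were called too, with -2.94 and -3.00. Mks1 moved alike in both deletions, with log2 fold changes of -1.52 and -1.66.

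**Figure D4:**
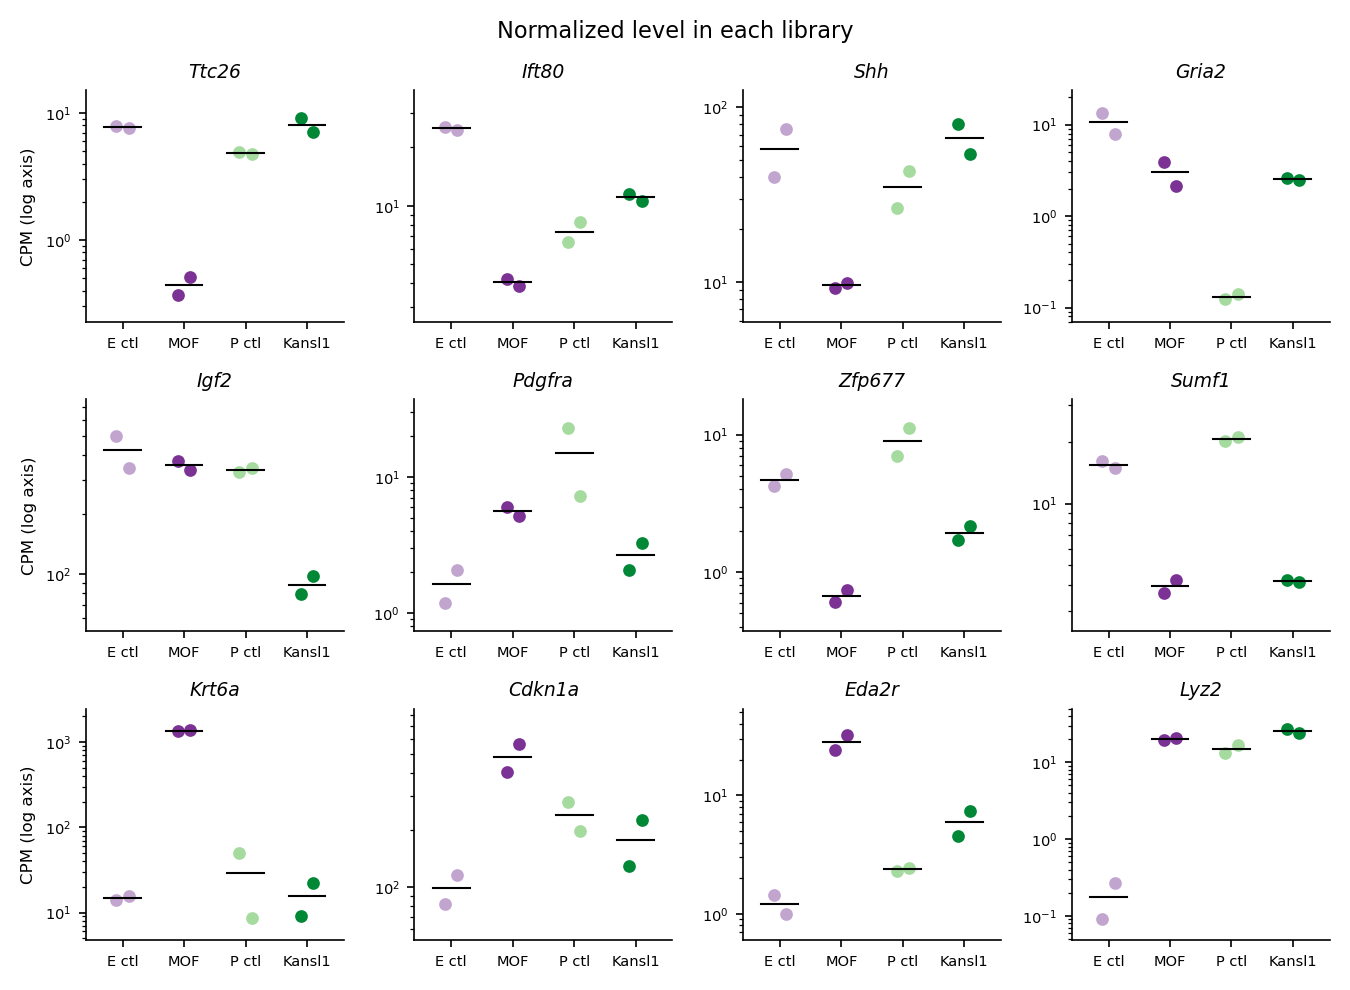
CPM on a log axis (vertical) of 12 genes in the 4 groups (horizontal), with a point for each library and a bar at the mean of each pair. Ttc26, Ift80 and Shh are lowest in MOF cKO and above their P0.5 controls in Kansl1 cKO, Igf2 is low in Kansl1 cKO alone, and Zfp677 and Sumf1 are low in both deletions.

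Shh was the 1 gene of the Hedgehog and hair placode lists that was both called lower in MOF cKO and higher in Kansl1 cKO at an unadjusted p under 0.05. Of 15 Hedgehog genes 5 fell in MOF cKO, 0 were lower and 3 higher in Kansl1 cKO at an unadjusted p under 0.05, and 2 differences were called below 0. Shh was at 39.96 and 74.9 CPM in E16.5 control, 9.17 and 9.92 CPM in MOF cKO, 26.6 and 43.3 CPM in P0.5 control and 80.2 and 53.95 CPM in Kansl1 cKO. Both MOF cKO libraries lay under both controls and both Kansl1 cKO libraries above theirs for Shh, the ligand made by the hair placode. The effects were -2.59 (SE 0.33, adjusted p = 0.000819) and 0.94 (SE 0.33, unadjusted p = 0.0184), and the difference was -3.52 (SE 0.46, adjusted p = 0.00416) with an interval of -4.57 to -2.48. Disp1, which releases the ligand, had the other called difference, -1.26 (SE 0.18, adjusted p = 0.00536). Ptch1, the receptor and a target, fell in MOF cKO by 0.95 on the log2 scale and had a difference of -0.78 (SE 0.21, adjusted p = 0.0395), and the target factor Gli1 had -0.23 (SE 0.35, adjusted p = 0.696), so neither was called. Hhip, an antagonist, and Kif7, a ciliary regulator of Gli factors, had differences of -2.36 (SE 0.93, adjusted p = 0.118) and -1.97 (SE 0.50, adjusted p = 0.0336). The list's called differences were 0 without P0.5 control replicate 1, 1 without E16.5 control replicate 1 and 2 without P0.5 control replicate 2.

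Of 15 genes of the hair placode and germ, 2 fell in MOF cKO, and 0 were lower and 6 higher in Kansl1 cKO at an unadjusted p under 0.05. Without P0.5 control replicate 1 those higher were 2, and without control replicate 2 they were 7. The median effects were -0.46 and 0.46, and 0 of the 15 had a Kansl1 effect below 0, beside 46.1% of all tested genes. Scaling by library size alone moved the median Kansl1 effect of all tested genes from 0.0374 to -0.044. Lhx2 was at 84 and 159 CPM in E16.5 control, 8.34 and 18.4 CPM in MOF cKO, 66.1 and 70.8 CPM in P0.5 control and 118 and 79.3 CPM in Kansl1 cKO. Lhx2, a transcription factor of hair progenitors, fell in both MOF cKO libraries, and at P0.5 all Kansl1 values were above the controls but widely spread. Its difference was -3.71 (SE 0.53, adjusted p = 0.00538). Edaradd, the adaptor of the ectodysplasin receptor, was called too with -1.06 (SE 0.19, adjusted p = 0.00944), while the Wnt inhibitor Dkk4 and the zinc finger factor Trps1 had -2.97 (SE 0.98, adjusted p = 0.0715) and -1.81 (SE 0.65, adjusted p = 0.0944). The list's 2 called differences were 0 without P0.5 control replicate 1, 0 without control replicate 2 and 1 without E16.5 control replicate 1, and that of Lhx2 was called in 3 of the 8 fits with a library left out.

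Further genes with the largest differences below 0 were not members of a list. Gria2 was at 13.4 and 7.85 CPM in E16.5 control, 3.94 and 2.15 CPM in MOF cKO, 0.122 and 0.139 CPM in P0.5 control and 2.61 and 2.503 CPM in Kansl1 cKO. Gria2, a glutamate receptor subunit, was lower in both MOF cKO libraries and higher in both Kansl1 cKO libraries than in their controls. It held 3 counts over both P0.5 controls and 78 over Kansl1 cKO, a ratio of 19.3 with a counting interval of 6.35 to 95.4. Notum was at 3.54 and 8.58 CPM in E16.5 control, 0.0463 and 0.3904 CPM in MOF cKO, 5.38 and 5.63 CPM in P0.5 control and 10.1 and 7.94 CPM in Kansl1 cKO. MOF cKO was far below control for Notum, an enzyme that inactivates Wnt ligands, and Kansl1 cKO was above, with a difference of -5.40 (SE 0.90, adjusted p = 0.00704). Sytl4 was at 2.88 and 5.08 CPM in E16.5 control, 0.0463 and 0.195 CPM in MOF cKO, 3.92 and 5.01 CPM in P0.5 control and 4.31 and 5.96 CPM in Kansl1 cKO. Sytl4, an effector of vesicle release, overlapped at P0.5 and had a difference of -5.10 (SE 0.84, adjusted p = 0.00593). Lrrc4 was at 27.02 and 56.04 CPM in E16.5 control, 1.62 and 5.11 CPM in MOF cKO, 7.22 and 6.19 CPM in P0.5 control and 14.01 and 8.46 CPM in Kansl1 cKO. Lrrc4, a leucine-rich repeat adhesion protein, was lowest in MOF cKO and had a difference of -4.37 (SE 0.71, adjusted p = 0.00833). The difference of Sytl4 was called in 0 of the 8 fits with a library left out, that of Lrrc4 in 2, of Notum in 3 and of Gria2 in 5.

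Genes of the cell cycle and DNA repair had 1 called difference in all. Of 24 mitosis genes 0 passed in MOF cKO, where the median was -0.27, and 15 were higher in Kansl1 cKO at an unadjusted p under 0.05, where the median was 0.56. Of the differences 0 were called, and the median difference was -0.78. Those higher in Kansl1 cKO were 3 without P0.5 control replicate 1, 21 without control replicate 2, and 8 when scaled by library size alone. Bub1 was at 62.6 and 59.5 CPM in E16.5 control, 37.3 and 39.2 CPM in MOF cKO, 15.4 and 20.4 CPM in P0.5 control and 34.7 and 25.03 CPM in Kansl1 cKO. For this spindle checkpoint kinase both Kansl1 cKO libraries lay above their controls and both MOF cKO libraries below theirs, and the difference was -1.40 (SE 0.27, adjusted p = 0.0141). Ccnb2 and Mki67 had differences of -1.37 (SE 0.30, adjusted p = 0.0201) and -1.17 (SE 0.35, adjusted p = 0.0539). Of 34 replication genes 3 fell in MOF cKO, near the 9.07% of all tested genes. Their called differences were 0 (median -0.35), Pola1 being the farthest at -1.15 (SE 0.31, adjusted p = 0.0413). Of 32 genes of homologous recombination and Fanconi repair 7 fell and 1 difference was called. The called gene was Rad54b, a DNA translocase of recombination. Rad54b was at 25.2 and 21.1 CPM in E16.5 control, 9.26 and 8.82 CPM in MOF cKO, 3.55 and 4.87 CPM in P0.5 control and 7.62 and 7.596 CPM in Kansl1 cKO. It was below control in MOF cKO and above it in Kansl1 cKO, with a difference of -2.19 (SE 0.32, adjusted p = 0.00533).

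Part of the genes of stress, differentiation and the p53 response rose in MOF cKO. Of 18 stress and wound genes 9 rose in MOF cKO, and 3 were higher and 0 lower in Kansl1 cKO at an unadjusted p under 0.05. The median effects were 3.72 and -0.24, the first 3.46 with genes at 0 counts set to their bound, and 3 differences were called above 0. Krt6a was at 13.9 and 15.6 CPM in E16.5 control, 1334 and 1374 CPM in MOF cKO, 49.4 and 8.55 CPM in P0.5 control and 9.11 and 21.9 CPM in Kansl1 cKO. Both MOF cKO libraries of this wound keratin lay far above all others, and at P0.5 the groups overlapped. The effects were 6.52 (SE 0.60, adjusted p = 0.000473) and -0.89 (SE 0.64, unadjusted p = 0.202), and the difference was 7.41 (SE 0.88, adjusted p = 0.00379). Krt16 was at 37.8 and 42.2 CPM in E16.5 control, 1641 and 1900 CPM in MOF cKO, 1192 and 142 CPM in P0.5 control and 296 and 493 CPM in Kansl1 cKO. Its partner keratin had a difference of 6.22 (SE 0.98, adjusted p = 0.0087), and the P0.5 control libraries lay on both sides of Kansl1 cKO. Krt6b, whose reads Krt6a can share, was at 224 and 8.35 CPM in P0.5 control and had a difference of 8.86 (SE 1.63, adjusted p = 0.012). The list's median Kansl1 effect was 0.92 without P0.5 control replicate 1 and -0.99 without control replicate 2, so its sign rested on which control was kept.

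Serpinb3a was at 0.359 and 0.267 CPM in E16.5 control, 47.6 and 32.2 CPM in MOF cKO, 643 and 602 CPM in P0.5 control and 1012 and 1026 CPM in Kansl1 cKO. Serpinb3a, of a multigene protease inhibitor family in which copies can share reads, rose in MOF cKO and was higher in both Kansl1 cKO libraries. With 6.95 against 0.71 its difference of 6.24 (SE 0.36, adjusted p = 0.000136) had the smallest adjusted p of the stress list. Of 44 genes of epidermal differentiation 9 rose in MOF cKO and 3 differences were called above 0, which were 4 and 1 without E16.5 control replicate 1. The 3 were those of the envelope protein Ivl (4.34) and the cross-linking enzymes Tgm1 (3.71) and Tgm3 (2.61). Ivl was at 0.3295 and 0.668 CPM in E16.5 control, 10.01 and 9.06 CPM in MOF cKO, 899 and 532 CPM in P0.5 control and 516 and 834 CPM in Kansl1 cKO. The MOF rise of Ivl took place at levels far under those of P0.5, where the genotypes overlapped. Over the list the median effects were 0.53 in MOF cKO (0.45 with genes at 0 counts set to their bound) and -0.08 in Kansl1 cKO, where 1 gene was lower and 0 higher at an unadjusted p under 0.05. Of 12 basal cell and hemidesmosome genes 3 rose, 1 fell and 0 differences were called, with Krt15 at -1.23 (SE 0.23, adjusted p = 0.0114) and Plec at 1.13 (SE 0.26, adjusted p = 0.0242).

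Of 33 p53 targets 22 rose and 0 fell in MOF cKO, 9 were higher and 2 lower in Kansl1 cKO at an unadjusted p under 0.05, and 12 differences were called above 0. The median effects were 1.51 and 0.21. Cdkn1a was at 81.2 and 116 CPM in E16.5 control, 404 and 564 CPM in MOF cKO, 279.9 and 196 CPM in P0.5 control and 129 and 226 CPM in Kansl1 cKO. Both MOF cKO libraries of this cell cycle inhibitor lay above their controls and at P0.5 the genotypes overlapped. Its effects were 2.29 (SE 0.30, adjusted p = 0.000888) and -0.43 (SE 0.30, unadjusted p = 0.188), with a difference of 2.72 (SE 0.42, adjusted p = 0.00679). Eda2r was at 1.44 and 1.002 CPM in E16.5 control, 24.2 and 32.4 CPM in MOF cKO, 2.33 and 2.43 CPM in P0.5 control and 4.53 and 7.42 CPM in Kansl1 cKO. All deletion libraries of Eda2r, a receptor for ectodysplasin A2, were above their controls, by 4.53 and 1.30, and the difference was 3.22 (SE 0.46, adjusted p = 0.00523). Ccng1 was at 39.04 and 36.9 CPM in E16.5 control, 258 and 291 CPM in MOF cKO, 76.2 and 63.7 CPM in P0.5 control and 81.1 and 98.5 CPM in Kansl1 cKO. The same was seen for cyclin G1, with a difference of 2.49 (SE 0.21, adjusted p = 0.000687). The 9 genes higher in both were Bbc3, Ccng1, Eda2r, Phlda3, Plk2, Psrc1, Sesn2, Trp53inp1 and Zmat3. Bax and Mdm2, the death effector and the p53 inhibitor, had called differences of 1.59 and 1.42. The 12 called differences were 4 without P0.5 control replicate 1, 10 without control replicate 2 and 2 without E16.5 control replicate 1, and that of Eda2r was called in 1 of the 8 fits with a library left out.

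Of 76 cytosolic ribosomal protein genes 74 rose in MOF cKO and 0 fell, with a median of 0.99, and 11 differences were called above 0. With library size alone 58 rose, and the called differences were 0 there, 0 without P0.5 control replicate 1, 5 without control replicate 2, 0 without E16.5 control replicate 1 and 23 with upper-quartile factors. In Kansl1 cKO 3 were higher and 0 lower at an unadjusted p under 0.05. The median there was 0.16, and 9 were below 0, beside 46.1% of all tested genes. The farthest were Rpl34, Rpl38 and Rps21, with differences of 1.91 (SE 0.92, adjusted p = 0.19), 1.28 (SE 0.21, adjusted p = 0.00747) and 1.15 (SE 0.17, adjusted p = 0.00553), and these genes have processed pseudogenes that can take their reads. Of 76 mitochondrial ribosomal protein genes 21 were lower and 0 higher in Kansl1 cKO at an unadjusted p under 0.05. Of all tested genes 7.56% were lower and 9.51% higher. In Kansl1 cKO 67 of the 76 had an effect below 0, beside 46.1% of all tested genes. Their median was -0.26 in Kansl1 cKO and -0.12 in MOF cKO, where 4 fell and 6 rose, or 15 and 2 with library size alone. The 1 called difference was that of Mrps18b, 1.54 (SE 0.19, adjusted p = 0.00353). Of 36 aminoacyl-tRNA synthetase genes 29 had a Kansl1 effect below 0, 3 of them at an unadjusted p under 0.05, near the 7.56% of all tested genes. In MOF cKO 5 of the 36 fell, beside 9.07% of all tested genes. Of 76 respiratory chain subunits 16 rose and 0 fell in MOF cKO, 8 were lower and 4 higher in Kansl1 cKO at an unadjusted p under 0.05, and of 29 import genes 12 rose and 1 fell, with 0 differences called in either list. These MOF counts rested on the scaling and on 1 library: with library size alone 3 respiratory chain genes rose and 4 fell, and 2 import genes rose and 2 fell, and without E16.5 control replicate 1 the genes that rose were 2 and 1.

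**Figure D5:**
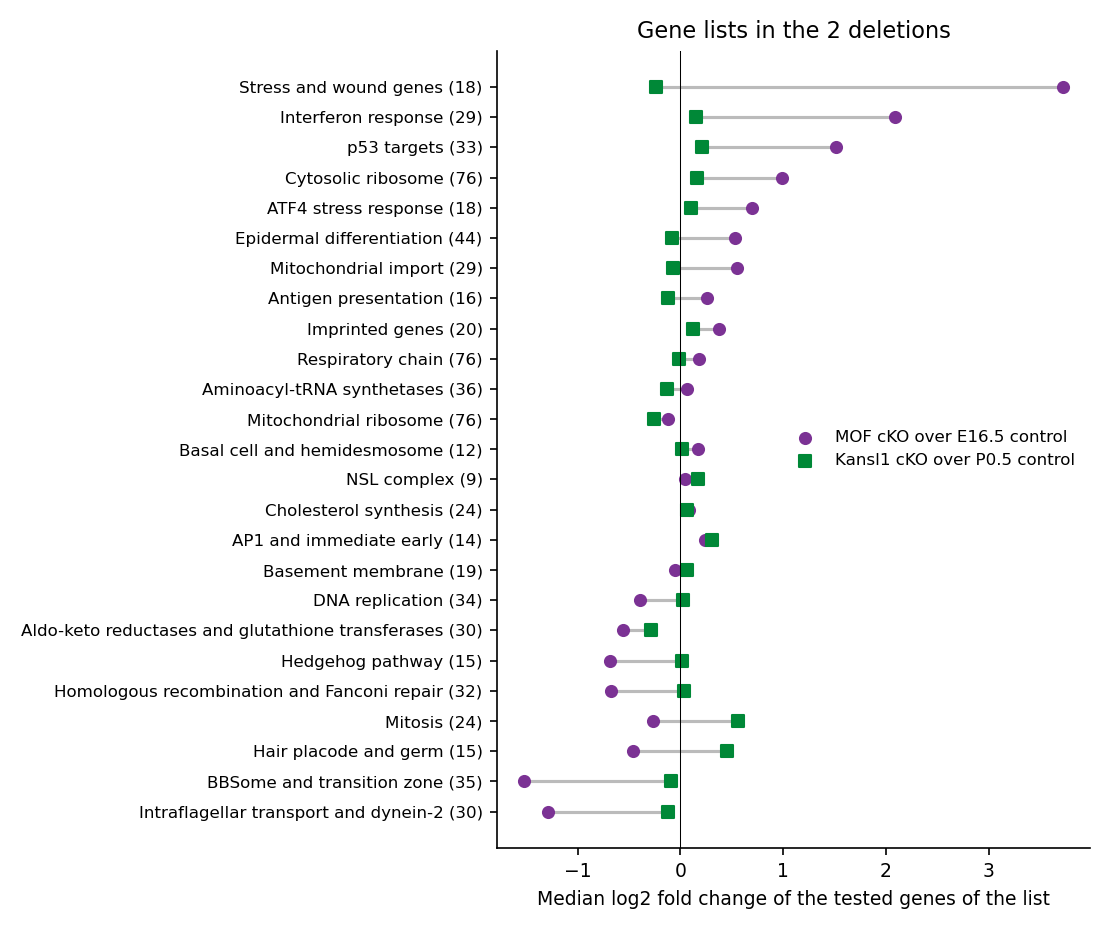
Median log2 fold change (horizontal axis) of the members of each gene list with at least 6 tested genes, cell type markers and sex-linked genes left out (vertical axis), with 1 point for MOF cKO and 1 for Kansl1 cKO joined by a line. The lists reach from -1.52 (BBSome and transition zone) to 3.72 (stress and wound genes) in MOF cKO, whereas their Kansl1 medians lie between -0.28 (aldo-keto reductases and glutathione transferases) and 0.56 (mitosis).

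Of 12 macrophage markers 10 rose in MOF cKO, 8 differences were called above 0, and 3 were higher in Kansl1 cKO at an unadjusted p under 0.05. Their summed level was 20.6 and 43.3 CPM in E16.5 control, 100.9 and 141 CPM in MOF cKO, 286 and 327 CPM in P0.5 control and 423 and 452 CPM in Kansl1 cKO. In bulk RNA more cells of a type and more RNA in each cannot be told apart, and these cells are outside the Krt14 lineage. Lyz2 was at 0.0899 and 0.267 CPM in E16.5 control, 19.6 and 21 CPM in MOF cKO, 13.1 and 16.8 CPM in P0.5 control and 27 and 23.9 CPM in Kansl1 cKO. All deletion libraries of lysozyme lay above their controls, by 6.81 and 0.76, and the difference was 6.05 (SE 0.50, adjusted p = 0.00028). C1qa and Ctss, a complement subunit and a lysosomal protease of these cells, had differences of 5.63 (SE 0.51, adjusted p = 0.00028) and 4.39 (SE 0.32, adjusted p = 0.000247). Called differences in the list were 6 without P0.5 control replicate 1, 8 without control replicate 2 and 7 without E16.5 control replicate 1.

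Several of the largest differences above 0 came from genes with 0 counts in both E16.5 controls, for which only a bound holds. Mmp12, a macrophage elastase, was at 11.2 and 3.75 CPM in MOF cKO, at least 157-fold above the floor of 3 counts over both controls, and at 0.734 and 1.46 CPM in P0.5 control and 0.213 and 0.259 CPM in Kansl1 cKO, the opposite order. By the same bound Slfn2 was at least 101-fold, Serpina3n 76.2-fold, Clec4n 68.2-fold, AF251705 24.4-fold, Sfpi1 24.3-fold, Hp 19-fold and Ccl6 12.3-fold higher in MOF cKO. Slfn2, a regulator of T cell and myeloid quiescence, was at 7.83 and 11.1 CPM in P0.5 control and 11.6 and 12.9 CPM in Kansl1 cKO. Clec4n, a C-type lectin, was at 2.45 and 3.13 CPM and 5.699 and 7.94 CPM, higher in both Kansl1 cKO libraries. Ccl6, a chemokine, went the other way at P0.5, with 16.52 and 14.1 CPM in control and 5.699 and 8.11 CPM in Kansl1 cKO. Mmp3, stromelysin, had 2 counts in E16.5 control and 833 in MOF cKO, a ratio of 558 with a counting interval of 154 to 4620, while its P0.5 libraries were at 1.47 and 0.0696 CPM and 0.266 and 0.432 CPM and overlapped.

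Other immune and stress lists had few called differences, and lower or higher in Kansl1 cKO here means at an unadjusted p under 0.05. Over all tested genes 9.07% fell and 9.18% rose in MOF cKO, and 7.56% were lower and 9.51% higher in Kansl1 cKO. Of 29 interferon response genes 9 rose in MOF cKO (median 2.09), 1 was higher in Kansl1 cKO (median 0.15) and 1 difference, that of Ifi202b, was called. Of 16 antigen presentation genes 3 rose and 0 differences were called. Of 18 ATF4 stress genes 3 rose, with medians of 0.69 and 0.10 and 1 called difference, that of the stress-induced chromatin protein Nupr1, 2.53. Of 14 AP1 and immediate early genes 1 fell and 1 rose in MOF cKO, and 4 were higher in Kansl1 cKO. Of 24 cholesterol synthesis genes 1 fell and 1 rose, and 3 were higher in Kansl1 cKO. Of 30 aldo-keto reductase and glutathione transferase genes 5 fell and 2 rose in MOF cKO, and 7 were lower and 4 higher in Kansl1 cKO, with median effects of -0.55 and -0.28. Of 19 basement membrane genes 5 fell in MOF cKO, 1 was lower and 3 higher in Kansl1 cKO, and 1 difference was called. The called gene was Col4a6, a basement membrane collagen. Col4a6 was at 95.6 and 84.2 CPM in E16.5 control, 24.5 and 28.8 CPM in MOF cKO, 20.8 and 29.9 CPM in P0.5 control and 25.3 and 29.9 CPM in Kansl1 cKO. Its P0.5 libraries overlapped, with a difference of -1.86 (SE 0.28, adjusted p = 0.00553). The anchoring fibril collagen Col7a1, the Fraser protein Frem2 and the laminin Lamc1 fell in MOF cKO and had differences of -0.69 (SE 0.20, adjusted p = 0.0488), -1.33 (SE 0.31, adjusted p = 0.0239) and -0.92 (SE 0.21, adjusted p = 0.0232).

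In 22 of the 426 genes the Kansl1 effect was the larger. Since 0 genes were called in Kansl1 cKO by themselves, no Kansl1-only response was called. Some of the 22, such as Gria2, Tpm2, Tagln and Pcolce, were called in MOF cKO in the opposite direction. Of the 426 genes 18 were not called in MOF cKO. Igf2 was at 496 and 345 CPM in E16.5 control, 374 and 336 CPM in MOF cKO, 329 and 343 CPM in P0.5 control and 78.8 and 97.2 CPM in Kansl1 cKO. Both Kansl1 cKO libraries of Igf2, an imprinted growth factor, lay far under both controls, and the E16.5 groups overlapped. The effects were -0.24 (SE 0.18, adjusted p = 0.334) in MOF cKO and -1.93 (SE 0.19, adjusted p = 0.0194) in Kansl1 cKO, and the difference was 1.69 (SE 0.26, adjusted p = 0.00662) with an interval of 1.10 to 2.28. It was called in 2 of the 8 fits with a library left out, between 1.54 and 1.97. Igf2 lies at chr7:142650768-142666816, beside H19. H19 was at 3006 and 2425 CPM in E16.5 control, 2041 and 1732 CPM in MOF cKO, 1837 and 1895 CPM in P0.5 control and 762 and 844 CPM in Kansl1 cKO. H19, an imprinted RNA, was lower in all deletion libraries, with effects of -0.53 and -1.22, and its difference of 0.69 (SE 0.21, adjusted p = 0.0546) was not called. Of 20 imprinted genes 3 rose in MOF cKO, and 4 were lower and 2 higher in Kansl1 cKO at an unadjusted p under 0.05. Meg3, Dlk1 and Nnat had the largest differences, 3.35, 3.27 and -2.52, with adjusted p values of 0.0329, 0.0145 and 0.0403.

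Capn6 was at 54.2 and 54.1 CPM in E16.5 control, 45.9 and 44.7 CPM in MOF cKO, 40.7 and 38.7 CPM in P0.5 control and 107 and 76.04 CPM in Kansl1 cKO. Capn6, a calpain-like protein without protease activity, was higher in both Kansl1 cKO libraries and slightly lower in both MOF cKO libraries. Its Kansl1 effect was 1.21 (SE 0.17, unadjusted p = 5.23e-05) and its difference -1.47 (SE 0.24, adjusted p = 0.00768). Nrep was at 143 and 149 CPM in E16.5 control, 92.3 and 101 CPM in MOF cKO, 59.3 and 84.9 CPM in P0.5 control and 186 and 136 CPM in Kansl1 cKO. Nrep, a regulator of neural and wound repair, had the same order, with -0.59, 1.15 and a difference of -1.75 (SE 0.28, adjusted p = 0.00715). Plxnc1, a semaphorin receptor, and Raver2, an RNA-binding protein, followed with differences of -2.04 (SE 0.33, adjusted p = 0.00788) and -1.88 (SE 0.32, adjusted p = 0.00864). The MOF effects of Nrep, Plxnc1 and Raver2 were -0.59, -0.94 and -0.93 (adjusted p = 0.0428, 0.0148 and 0.0103). They were opposite in sign to the Kansl1 effects and not called. Nol10 was at 28.6 and 31.4 CPM in E16.5 control, 34.5 and 35.02 CPM in MOF cKO, 22.9 and 19.1 CPM in P0.5 control and 9.85 and 8.98 CPM in Kansl1 cKO. Nol10, a nucleolar protein, was lower in both Kansl1 cKO libraries and higher in both MOF cKO libraries, with a difference of 1.36 (SE 0.24, adjusted p = 0.00917). The gene BC005624 had the same pattern and a difference of 1.54 (SE 0.22, adjusted p = 0.00504). In fits with 1 library left out, BC005624 and Plxnc1 were called in 0 of 8, Capn6, Nol10 and Raver2 in 1 and Nrep in 2.

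Of the named genes with a called difference above 0 and a Kansl1 effect below 0, 5 are given with their levels. Of the 7 fibroblast and 6 skeletal muscle markers, 0 were called higher in MOF cKO and lower in Kansl1 cKO at an unadjusted p under 0.05. Yet 0 markers of either list had effects of the same sign. All but 1 fibroblast marker were higher after MOF loss and lower after Kansl1 loss. The median effects were 1.03 and 2.23 in MOF cKO and -1.73 and -5.44 in Kansl1 cKO. The median differences were 2.78 and 7.59, and 1 fibroblast difference, that of Pdgfra, was called. Pdgfra was at 1.198 and 2.07 CPM in E16.5 control, 6.02 and 5.19 CPM in MOF cKO, 23 and 7.303 CPM in P0.5 control and 2.08 and 3.28 CPM in Kansl1 cKO. Pdgfra, a growth factor receptor of fibroblasts, was higher in both MOF cKO libraries and lower in both Kansl1 cKO libraries than in their controls, and P0.5 control replicate 1 was the highest of all. The effects were 1.78 (SE 0.52, adjusted p = 0.0285), which was not called, and -2.5 (SE 0.53, unadjusted p = 0.00124), with a difference of 4.28 (SE 0.74, adjusted p = 0.00998). Tpm2 was at 12.8 and 15.8 CPM in E16.5 control, 67.8 and 61.9 CPM in MOF cKO, 36.2 and 8.28 CPM in P0.5 control and 4.74 and 4.75 CPM in Kansl1 cKO. Tpm2, a tropomyosin of muscle and fibroblasts, had a difference of 4.37 (SE 0.72, adjusted p = 0.0086). Tagln was at 1.32 and 2.04 CPM in E16.5 control, 10.9 and 6.13 CPM in MOF cKO, 2.57 and 1.04 CPM in P0.5 control and 0.373 and 0.173 CPM in Kansl1 cKO. Tagln, transgelin of smooth muscle, had 4.90 (SE 0.88, adjusted p = 0.00944). Pcolce was at 2.13 and 3.44 CPM in E16.5 control, 7.88 and 10.6 CPM in MOF cKO, 11.3 and 6.33 CPM in P0.5 control and 2.56 and 2.07 CPM in Kansl1 cKO. Pcolce, an enhancer of procollagen processing, had 3.63 (SE 0.54, adjusted p = 0.00589). Sh2d5, an adaptor protein, was at 0.659 and 1.14 CPM in E16.5 control and 24.4 and 28.8 CPM in MOF cKO, and held 9 counts in P0.5 control and 3 in Kansl1 cKO, a ratio of 4.05 with a counting interval of 1.01 to 23.2.

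Without P0.5 control replicate 1 the differences were 3.24 for Pdgfra, 2.98 for Tpm2, 4.17 for Tagln, 3.17 for Pcolce and 5.93 for Sh2d5, and only that of Tpm2 still passed. Fibroblast markers summed to 842 and 1435 CPM in E16.5 control, 1422 and 1982 CPM in MOF cKO, 1866 and 1175 CPM in P0.5 control and 1018 and 807 CPM in Kansl1 cKO. Of 7 fibroblast markers 0 were called in MOF cKO and 6 were lower in Kansl1 cKO at an unadjusted p under 0.05 with a median of -1.73, and without P0.5 control replicate 1 those were 2 and -0.72. All 6 skeletal muscle markers were lower in Kansl1 cKO at an unadjusted p under 0.05, with the 318 CPM of P0.5 control replicate 1 against 8.69 CPM in the other control. Endothelial markers summed to at most 22.4 CPM and mast cell markers to at most 52.7 CPM. The part of such cells in these differences was not tested.

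Markers of further cell types were counted beside the lists. Melanocyte markers summed to 13.2 to 59.2 CPM at E16.5, to 483 and 531 CPM in P0.5 control and to 1043 and 1184 CPM in Kansl1 cKO, where 3 of 5 were higher at an unadjusted p under 0.05 and 1, Mlana, rose in MOF cKO as well. Merkel cell markers summed to 33.6 and 33.9 CPM in E16.5 control and to 12.7 and 13.4 CPM in MOF cKO, where 2 of 4 fell. T cell markers summed to 15.3 to 65.9 CPM, Langerhans cell markers to 4.74 to 17.7 CPM and Schwann cell markers to 4.49 to 56.5 CPM, with 0 calls in each. The 1 red cell marker tested gave 0 calls.

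Transcript length and base composition were compared between the classes, as genes of unlike length gather unlike numbers of reads. The median length was 1470 bases over all tested genes, 1510 over those lower and 1190 over those higher in MOF cKO, 1180 over those lower in both deletions and 1280 over those higher in both. For called differences it was 1760 below 0 and 1310 above 0. Median GC content ran from 49.3% in the genes below 0 and in those higher in both to 52.1% in those above 0, beside 50.9% over all tested genes.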

How the data were processed

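Polyadenylated RNA of 8 mouse samples was sequenced as paired reads, with NEBNext Ultra Directional libraries. Per the study's methods, the authors aligned reads to mm10 with HISAT2 and counted them per gene with HTSeq, and they deposited the raw counts without normalization; the submitters' processing notes name TopHat2 and HTSeq. Whether counting used strand was not given in the sources used here, so overlapping and antisense genes may share reads. Each library lists 23432 genes, and reads on no gene (21.1% to 26% of a library) were left out.

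One edgeR model (4.0.16, R 4.3.3) with a mean for each of the 4 groups was fitted to all 8 libraries, with filterByExpr, TMM factors and the quasi-likelihood test, since the difference of 2 effects needs 1 estimate of the spread. Standard errors and 95% intervals come from that fit. A call needed an adjusted p no higher than 0.01 and a change over 1.5-fold, the study's limits. The alternatives were DESeq2 1.42.0, limma-voom (limma 3.58.1), glmTreat, other scalings, filters and thresholds, the replicate block, separate fits and each library left out. The scripts were tested on simulated counts. Intervals of counts cover counting error only, and a group at 0 was given a floor of 3 counts.

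The members and gene lists were chosen with earlier results of these data known. Named genes were the 8 largest and 8 smallest called differences with a group mean of at least 5 CPM and deletion libraries apart from their controls, the 8 genes with the largest smaller effect in the same and in opposite directions, the 8 with the largest Kansl1 effect, up to 3 in each list, the deleted genes, NSL and MSL subunits, and genes named by the study. As too few genes were called in Kansl1 cKO, the like and opposite genes were filled up with genes called in 1 deletion and at an unadjusted p under 0.05 in the other, and the Kansl1 genes with called differences in which the Kansl1 effect was larger. Genes of 1 list were described also where they fall outside that rule, chosen after their values were seen. Single-cell and chromatin data were not analysed here, and 1 gene's result is not reported here.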

Additional observations from a re-analysis of the deposited data

Results flagged for a closer look

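The following genes were taken from those named by the rule above. Each has a called difference and effects of opposite sign with an unadjusted p under 0.05 in each experiment. Their deletion libraries lay on opposite sides of both controls, which made the responses differ between the 2 deletions. Genes outside that rule, such as Ift80, met these conditions as well and are not listed. The difference of the log2 fold changes was -6.01 for Gria2, -4.88 for Ttc26, -3.52 for Shh and -2.19 for Rad54b. It was -2.04 for Plxnc1, -1.88 for Raver2 and -1.75 for Nrep. Above 0, it was 1.54 for BC005624, 3.63 for Pcolce, 4.28 for Pdgfra, 4.37 for Tpm2, 4.90 for Tagln and 6.89 for Sh2d5. The values of Gria2 and Sh2d5 rest on a group with 3 counts and depend on the prior count of the fit. Those of Pcolce, Pdgfra, Tpm2, Tagln and Sh2d5 stand beside the muscle and fibroblast RNA of P0.5 control replicate 1, whose part was not tested. Mmp12, Serpina3n and Ccl6 met the same conditions with 0 counts in both E16.5 controls, so no fitted value is given.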

How the results depend on the processing

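The cause of the moves below was not tested. With each library left out in turn, genes lower in MOF cKO ran from 355 (without E16.5 control replicate 2) to 1351 and genes higher from 476 (without E16.5 control replicate 1) to 1356. Genes lower in Kansl1 cKO ran from 0 to 1 and called differences below 0 from 12 (without P0.5 control replicate 1) to 135 and above 0 from 61 to 288. Genes called in both in opposite directions ran from 0 to 1 (Tpm2, without P0.5 control replicate 2), and genes called in MOF cKO alone with a called difference from 80 to 389. Genes lower in both ran from 125 to 412, higher in both from 97 to 239, lower in MOF cKO but higher in Kansl1 cKO from 10 to 95, and the reverse from 18 to 120. Pearson's r across genes ran from 0.00403 (without P0.5 control replicate 2) to 0.181 (without P0.5 control replicate 1). A group with 1 library was assumed to vary like the others. Without both controls that differ in sex-linked genes, 470 genes were lower and 478 higher in MOF cKO, 3 were lower in Kansl1 cKO, 18 differences were below and 83 above 0, and 1 gene was called in both in opposite directions. There 93 genes were called in MOF cKO alone and 2 in Kansl1 cKO alone with a called difference, 71 were lower and 74 higher in both, 29 were lower then higher, and r was 0.0160.

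DESeq2 called 2083 genes higher in MOF cKO, 96 lower and 95 higher in Kansl1 cKO, and differences for 520 below and 976 above 0. It called 76 genes in both in the same and 13 in opposite directions, 1319 in MOF cKO alone and 26 in Kansl1 cKO alone with a called difference, and had 71 higher in MOF cKO and lower in Kansl1 cKO. Testing every gene with 1 count gave 2129 genes higher in MOF cKO, 119 lower and 61 higher in Kansl1 cKO, and 539 differences below and 1112 above 0. It gave 65 and 23 genes called in both, 1453 and 40 called in 1 deletion with a called difference, 147 higher in MOF cKO and lower in Kansl1 cKO, and r of 0.0469. The correlation was 0.289 over genes with 1 CPM in every control and 0.204 with each experiment fitted alone. Limma-voom gave 81 differences below and 138 above 0, with 213 genes of MOF cKO alone. Scaling by library size alone gave 2272 genes lower and 796 higher in MOF cKO, 1 lower in Kansl1 cKO, 1 of Kansl1 cKO alone, 566 lower and 90 higher in both. Upper-quartile factors gave 2 genes lower in Kansl1 cKO, 1 called in both in the same direction and 1 of Kansl1 cKO alone. Relative log expression factors and TMM factors within each experiment moved no such count past 1.5 times.

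At an adjusted p of 0.05, 2275 genes were lower and 2013 higher in MOF cKO, 5 lower and 3 higher in Kansl1 cKO, 985 differences were below and 1026 above 0, 5 genes were called in both, and 1743 and 2 in 1 deletion. The test against the fold threshold (glmTreat) gave 497 and 533 genes in MOF cKO, 35 and 87 differences, and 119 genes of MOF cKO alone. The study's methods speak of pairs of samples and littermate controls in both experiments, but no source used here says that equal replicate numbers mark a pair. Deviations of same-numbered libraries from the group means correlated at 0.241 at E16.5 and -0.202 at P0.5. With the replicate number as a block, 570 genes were lower and 653 higher in MOF cKO, 0 differences were below and 1 above 0, and 1 gene was called in MOF cKO alone. Under the block 162 genes were lower and 128 higher in both, 27 lower then higher and 19 higher then lower. The crossed pairing at P0.5, added after seeing the data, gave 2 and 2 genes in Kansl1 cKO, 620 and 772 differences, 1 and 1 called in both, 1208 and 2 in 1 deletion, 403 higher in both, 146 lower then higher and 123 higher then lower. Of the named results, 0 changed sign while called under any of these settings. Few libraries limit what can be called: the shallowest library, P0.5 control replicate 1, held 9108709 reads on genes, and genes of a few counts were not resolved there.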
